A study of Homo sapiens with 18 samples.

Results

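The 7 genes described here, UNG, APEX1, APEX2, MSH6, EXO1, POLH and REV1, take part in antibody gene diversification and its repair. They were listed by name, with earlier results of these data known, out of 23250 gene symbols, and all 7 passed the filter on low values that kept 12769 genes for testing. Total RNA was sequenced from SUDHL6, Farage and SUDHL4, established human lines of diffuse large B cell lymphoma (DLBCL). In each line, 3 libraries came from cells kept for 12 h with DMSO, the vehicle, and 3 from cells kept for 12 h with a compound that inhibits BCL6, named in the labels by a code, at 10 µM. No genetic change and no other agent is named for any of the 6 groups. Whether replicates were separate cultures is not stated, so every p-value reflects the spread between libraries only, and that spread may be technical.

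In germinal center B cells, antibody genes are diversified after cytosines in them have been turned into uracils. UNG, a uracil glycosylase, removes the uracil, and the apurinic/apyrimidinic endonucleases APEX1 and APEX2 can cut the site that is left, which opens the way to mutation or to class switch recombination. MSH6 is part of the complex that recognises the mismatch instead, EXO1 resects the strand around it, and translesion polymerases such as POLH (polymerase eta), working with REV1 (a deoxycytidyl transferase that also recruits other polymerases), fill gaps or copy damaged bases with errors. Most of these proteins also serve ordinary base excision, mismatch or damage tolerance repair in any dividing cell. BCL6 is a transcriptional repressor that germinal center B cells and many of these lymphomas depend on.

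Values are CPM as deposited, the reads of a gene scaled to the size of its library. Reads on listed genes ran from 6289956 to 20599310 in SUDHL6, where replicate 3 was the shallow library of each group, and from 16867228 to 25492726 in the other 12 libraries. Replicates lay farther apart in SUDHL6 than in the other lines: chi-square divided by its degrees of freedom was 16.66 to 54.13 there, against 1.87 to 17.72 in Farage and SUDHL4. The 8 B cell markers were read in every group, and the 12 markers of T cells, myeloid cells, epithelium, stroma and endothelium summed to 0 to 10.29 CPM per library. Of the T cell markers CD3D averaged 0.00384 CPM over all libraries, while CD3E had 1.607 ± 0.0906 CPM in SUDHL4 with DMSO and 0 reads in SUDHL6 and Farage. The stromal marker COL1A1 averaged 6.476 CPM with DMSO and 1.178 CPM with inhibitor in Farage. The endothelial marker PECAM1 averaged 3.94 and 6.126 CPM in SUDHL4. The myeloid marker CD14 averaged 0.2155, 0.1509 and 0.1597 CPM with DMSO in SUDHL6, Farage and SUDHL4, and 1.878, 1.885 and 1.535 CPM with inhibitor. These 3 were named after their values were seen. The summed B cell markers ran from 3701 to 7031 CPM with DMSO. In bulk libraries such as these, fewer cells of a type and less RNA per cell cannot be told apart.

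Promoter stretches are shown first, to give the sequence features that the choice of the 7 genes did not use. For each RefSeq transcription start (build GRCh38.p14) the 250 bases before it were searched on both strands for CCAAT (the CCAAT box), CACGTG (the E-box), TTTNNCGC (an E2F-type motif) and TTCCNNGAA (a BCL6-type motif). All 7 genes matched the RefSeq table, with 12 starts, of which 6 held a match. Stretches of 30 bases around the matches follow, 5′ to 3′ on the gene's own strand, which is plus for all but REV1. Capitals mark the motif, and ATTGG is CCAAT on the other strand.

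UNG start 2, chr12:109097928-109097957: ccaaatagcctcCACGTGttcaaaatagcc
UNG start 2, chr12:109097983-109098012: gctaaagggccagCCAATgggaacgcgtct
UNG start 2, chr12:109098014-109098043: ggggcccatggcgCCAATccgcgcgccgca
UNG start 2, chr12:109098055-109098084: ctcggtgcgctgtCCAATcagaggggagag
UNG start 2, chr12:109098105-109098134: gtttTTTGCCGCgaaaagacCACGTGggga
APEX1, chr14:20455117-20455146: ccgtCACGTGgtgtcagacagaCCAATcac
APEX1, chr14:20455170-20455199: cgcgcctctgatCACGTGaccaggtccgct
APEX1, chr14:20455191-20455220: aggtccgctaccCACGTGggggctcagcgt
APEX2, chrX:55000233-55000262: gttcctcctcccgCCAATgagagctgagga
MSH6 start 1, chr2:47783085-47783114: gaggcgcctgttgATTGGccactggggccc
EXO1 start 2, chr1:241848631-241848660: acttacctcatTTTTCCGCagaagctggca
REV1 (minus strand), chr2:99490238-99490267: gtCACGTGccgcccaggcgctgccccttgc

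UNG start 2 held 6 matches (3 CCAAT, 2 CACGTG and 1 TTTNNCGC), whereas the window of UNG start 1 held none. The APEX1 window held 4 matches, 3 of them CACGTG. MSH6, EXO1, REV1 and APEX2 had 1 match each, the POLH window held none of the 4 motifs, and TTCCNNGAA was found in none of the 12 windows. Among 35116 RefSeq windows of the same length, 32% held CCAAT, 6.34% CACGTG, 5.92% TTTNNCGC and 3.86% TTCCNNGAA. The share of those windows with any of the 4 motifs, or with several matches, was not counted. The matches above describe letters only. The expression table gives 1 value per gene, so the starts of UNG, MSH6 and EXO1 could not be separated in the measurements below.

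With the inhibitor, 6 of the 7 genes were called lower in SUDHL6, where 41.3% of all tested genes were called lower, 26.8% higher and 68.1% in either direction (limma with an intensity trend on log2(CPM + 1), two-sided, Benjamini-Hochberg adjusted p under 0.05). In SUDHL4 5 were called lower and 1 higher, against 46.2% of all tested genes lower, 24.3% higher and 70.5% called. In Farage MSH6 lay near 0 in every library. Of the other 6 genes 4 were called lower there, against 46.5% of all tested genes lower, 25.4% higher and 71.9% called. The arms did not overlap for 5 of the 7 genes in SUDHL6, all lower with inhibitor, against 61% of all tested genes without overlap (36.5% lower and 24.4% higher). In Farage all 6 genes other than MSH6 had no overlap, 5 lower and 1 higher, against 83.8% (53.2% lower and 30.6% higher), and in SUDHL4 6 of 7 had none, 5 lower and 1 higher, against 80.5% (51.6% lower and 28.9% higher). The median log2 fold change of the 7 genes was -0.91 in SUDHL6 and -1.21 in SUDHL4, beside medians of -0.13 and -0.21 over all tested genes, and that of the 6 genes other than MSH6 in Farage was -0.58, beside -0.22. Fold changes here are on the log2(CPM + 1) scale, which understates the change of weakly expressed genes. Scaling each library by the median of ratios moved the medians of all genes to between -0.037 and 0, and the higher share of all calls from 39.4% to 48.8% in SUDHL6, from 35.3% to 47.4% in Farage and from 34.5% to 48.7% in SUDHL4. The medians of the 7 genes became -0.73 in SUDHL6 and -0.91 in SUDHL4 under this scaling. With edgeR on the recovered reads, 4388 of 8701 called genes were higher in SUDHL6, 4322 of 9160 in Farage and 4588 of 9130 in SUDHL4.

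**Figure D1:**
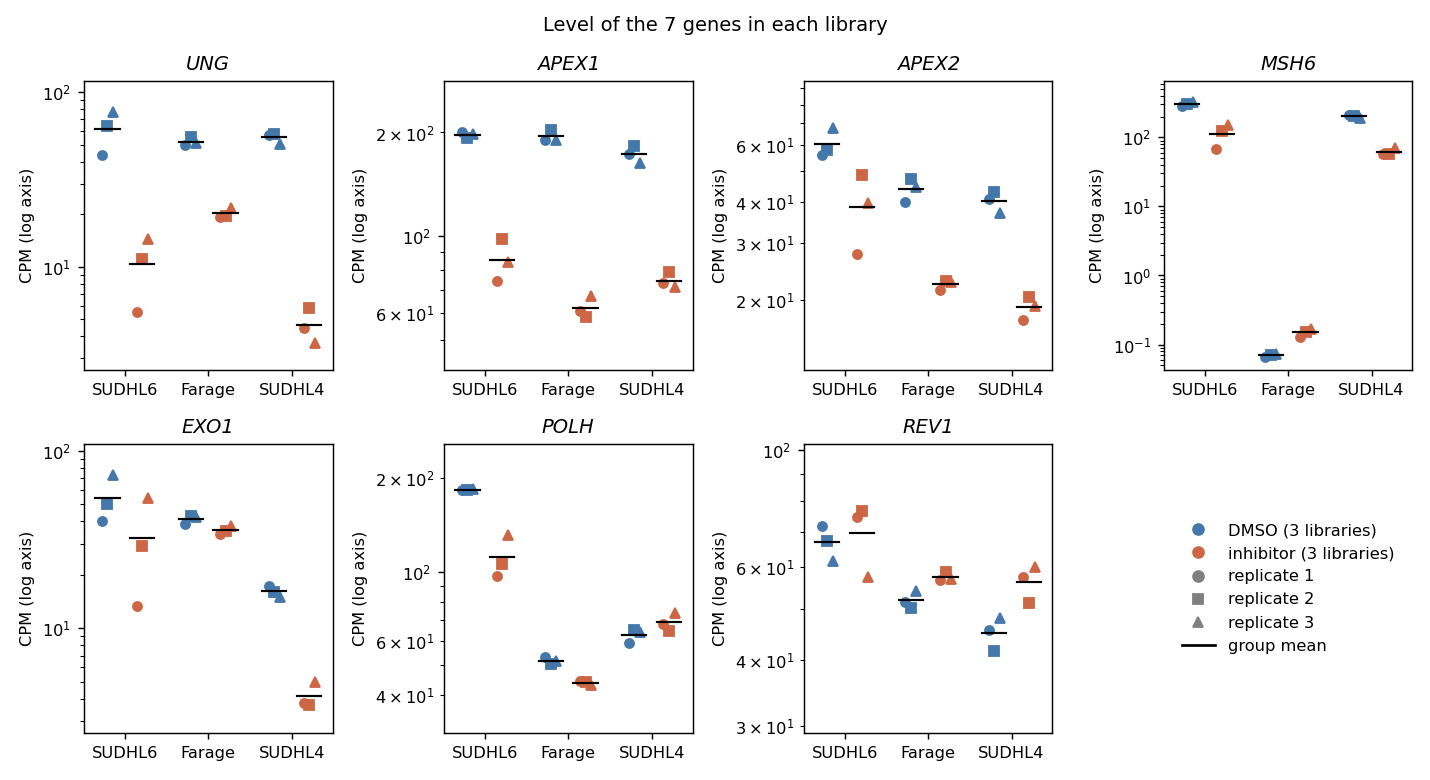
Level of each of the 7 genes in CPM (log axis, a separate scale in each panel) in all 18 libraries, by line, with DMSO in blue and inhibitor in orange, marker shapes for the replicate number and bars for the group mean. UNG, APEX1 and APEX2 lay lower with inhibitor in all 3 lines, MSH6 stood near 0 in all 6 Farage libraries, and the REV1 values span the narrowest range, 41.54 to 76.7 CPM.

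UNG, the glycosylase that removes uracil from DNA, showed the largest fall of the 7 genes in SUDHL6 and SUDHL4. UNG read 43.45, 63.96 and 76.57 CPM in the 3 DMSO libraries of SUDHL6 and 5.55, 11.15 and 14.49 CPM with inhibitor. Farage gave 49.88, 55.26 and 51.28 CPM with DMSO and 19.38, 19.58 and 21.73 CPM with inhibitor. SUDHL4 gave 56.96, 57.44 and 50.78 CPM with DMSO and 4.464, 5.837 and 3.656 CPM with inhibitor. Every treated library of each line lay below every DMSO library of that line, and the treated Farage libraries stayed above the treated libraries of the other lines.

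UNG had a log2 fold change of -2.5 (SE 0.245, adjusted p = 1.96e-07) in SUDHL6, where the treated mean was 17% of the DMSO mean. It was -1.32 (SE 0.245, adjusted p = 0.00014) in Farage, 38.8% of the DMSO mean. In SUDHL4 it was -3.33 (95% interval -3.85 to -2.81, adjusted p = 5.82e-09), 8.45% of the DMSO mean. Only 0.0627% of all tested genes had a lower log2 fold change than UNG in SUDHL4, and 0.627% in SUDHL6.

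The response of UNG differed between lines. The fall was larger in SUDHL4 than in Farage by -2 on the log2 scale (SE 0.347, adjusted p = 0.00027) and larger in SUDHL6 than in Farage by -1.18 (SE 0.347, adjusted p = 0.0139). The 2 comparisons share the Farage libraries. SUDHL6 and SUDHL4 differed by 0.82, with a 95% interval of 0.09 to 1.56 before adjustment and an adjusted p of 0.0762. That difference passed with the replicate number as a block (0.82, adjusted p = 0.0016) and without replicate 1 of the treated SUDHL6 libraries (1.18, adjusted p = 0.00175) or replicate 3 of its DMSO libraries (1, adjusted p = 0.0381). The block pairs libraries by number in SUDHL4 too, where same-numbered libraries did not deviate together. With DMSO alone the UNG level was not called different between any pair of lines, with means of 61.33 ± 16.7 in SUDHL6, 52.14 ± 2.79 in Farage and 55.06 ± 3.71 CPM in SUDHL4 (SD, n = 3 each) and adjusted p of 0.494 to 0.801. From high to low, the means ran from DMSO in SUDHL6, SUDHL4 and Farage, whose libraries overlapped between neighbours, to the treated Farage libraries and then to treated SUDHL6 and treated SUDHL4, which also overlapped.

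APEX1, the main apurinic/apyrimidinic endonuclease of base excision repair, was lower with inhibitor in all 3 lines. SUDHL6 gave 200.1, 192.7 and 197.4 CPM with DMSO and 73.96, 98.41 and 84.07 CPM with inhibitor. Farage gave 190.2, 203.8 and 190.6 CPM with DMSO and 60.66, 58.34 and 67.12 CPM with inhibitor. SUDHL4 gave 172.8, 183 and 162.7 CPM with DMSO and 72.9, 78.49 and 71.23 CPM with inhibitor. No treated library reached a DMSO library in any line, and the DMSO levels of the lines were not called different (adjusted p of 0.0704 to 0.893). The SUDHL4 DMSO libraries nevertheless lay below all those of SUDHL6 and Farage. By limma, both differences were called when treated SUDHL6 replicate 1 or 2, which neither uses, was left out. SUDHL4 minus Farage was -0.17 (adjusted p = 0.0438 and 0.0417) and SUDHL6 minus SUDHL4 0.19 (0.03 and 0.0281).

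APEX1 had a log2 fold change of -1.2 (SE 0.0885, adjusted p = 1.09e-08) in SUDHL6, -1.64 (SE 0.0885, adjusted p = 2.53e-10) in Farage and -1.21 (SE 0.0885, adjusted p = 5.4e-09) in SUDHL4. Unlike UNG, its fall was largest in Farage: the response of SUDHL6 minus that of Farage was 0.43 (SE 0.125, adjusted p = 0.0122), and that of SUDHL4 minus Farage was 0.43 (SE 0.125, adjusted p = 0.0129). SUDHL6 and SUDHL4 differed by 0.01, with a 95% interval of -0.26 to 0.27. Within libraries, the ratio of UNG reads to APEX1 reads went down with inhibitor in SUDHL6 and SUDHL4 and up in Farage. It ran from 0.217 to 0.388 with DMSO and from 0.075 to 0.172 with inhibitor in SUDHL6, and from 0.312 to 0.33 and 0.0513 to 0.0744 in SUDHL4. In Farage the ratio ran from 0.262 to 0.271 with DMSO and from 0.32 to 0.336 with inhibitor, and the libraries of the 2 arms did not overlap in any line.

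APEX2, a second enzyme of this type with a strong 3′ exonuclease and phosphodiesterase activity, was lower with inhibitor in all 3 lines too. SUDHL6 gave 55.78, 57.92 and 67.9 CPM with DMSO and 27.75, 48.54 and 39.86 CPM with inhibitor. Farage gave 40, 47.28 and 44.59 CPM with DMSO and 21.53, 22.97 and 22.77 CPM with inhibitor. SUDHL4 gave 41.05, 43.03 and 37.01 CPM with DMSO and 17.38, 20.43 and 19.12 CPM with inhibitor. The treated libraries lay below the DMSO libraries in each line, with the widest spread among the treated SUDHL6 libraries.

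APEX2 had a log2 fold change of -0.66 (adjusted p = 0.000769) in SUDHL6, -0.94 (adjusted p = 2.55e-05) in Farage and -1.05 (adjusted p = 7.25e-06) in SUDHL4, with an SE of 0.147 each. No pair of lines was called different in this response (differences of 0.28, -0.11 and 0.39, adjusted p of 0.16 to 0.711), and the interval for SUDHL6 against SUDHL4 reached from -0.05 to 0.83. Without replicate 1 of the treated SUDHL6 libraries, the lowest of that group, SUDHL6 differed from SUDHL4 by 0.6 (adjusted p = 0.0042) and from Farage by 0.49 (adjusted p = 0.0146). With DMSO, APEX2 was higher in SUDHL6 than in SUDHL4 by 0.57 (adjusted p = 0.0025) and than in Farage by 0.45 (adjusted p = 0.0114). The call against Farage ended without replicate 3 of SUDHL6 (0.37, adjusted p = 0.0532) or replicate 1 of Farage (0.39, adjusted p = 0.0514), both DMSO libraries. APEX1 and APEX2 did not keep their proportion: the ratio of their reads ran from 4.27 to 4.76 with DMSO and from 2.54 to 2.95 with inhibitor in Farage, and from 2.91 to 3.59 and 2.03 to 2.67 in SUDHL6. In SUDHL4 it ran from 4.21 to 4.4 with DMSO and from 3.73 to 4.2 with inhibitor.

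MSH6, a subunit of the mismatch recognition complex, split the lines. SUDHL6 gave 284.4, 308.5 and 328.3 CPM with DMSO and 68.19, 122.9 and 149.4 CPM with inhibitor. SUDHL4 gave 207.5, 206.7 and 187.9 CPM with DMSO and 57.92, 57.45 and 70.49 CPM with inhibitor. The treated libraries lay below the DMSO libraries in both lines. The log2 fold change was -1.5 (SE 0.188, adjusted p = 2.9e-06) in SUDHL6, 37% of the DMSO mean, and -1.68 (SE 0.188, adjusted p = 6.06e-07) in SUDHL4, 30.9% of the DMSO mean. These responses differed by 0.19, with a 95% interval of -0.38 to 0.75 and an adjusted p of 0.633. Without replicate 1 of the treated SUDHL6 libraries the difference was 0.51 (adjusted p = 0.00818). With DMSO the level was higher in SUDHL6 than in SUDHL4 by 0.61 (SE 0.188, adjusted p = 0.00882).

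In Farage MSH6 gave 2, 2 and 2 reads in the DMSO libraries and 4, 4 and 5 reads in the treated ones, in libraries of 20222306 to 24097618 reads on listed genes. Pooled, this is 0.0693 CPM with DMSO (95% exact Poisson interval 0.0254 to 0.151) and 0.149 CPM with inhibitor (0.0795 to 0.255), where 3 reads in a library are worth 0.0976 to 0.113 CPM. No fold change or direction is given for MSH6 in Farage at this depth. At equal depth, the DMSO libraries of SUDHL6 held 4350 times as much MSH6 as those of Farage (95% exact interval 2000 to 11900), and those of SUDHL4 held 2900 times as much (1330 to 7890). These intervals cover counting error only.

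The genes next to MSH6, taken in their order in the RefSeq annotation, showed where the low level in Farage began and ended. CALM2, a calmodulin gene farther before MSH6, averaged 401.7 ± 45.6 CPM in Farage with DMSO, beside 322.2 ± 37.2 in SUDHL6 and 389.8 ± 20.6 CPM in SUDHL4. KCNK12, a potassium channel gene just before MSH6, averaged 10.01 CPM in Farage, 7.343 in SUDHL6 and 11.17 CPM in SUDHL4. FBXO11, the next gene after MSH6, overlaps it in the annotation and encodes the F-box protein that targets BCL6 for degradation.

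FBXO11 gave 3 reads over the 3 Farage DMSO libraries and 1 over the treated ones. It averaged 51.15 ± 3.95 CPM in SUDHL6 and 78.82 ± 4.64 CPM in SUDHL4 with DMSO, which at equal depth is 1500 times (95% exact interval 514 to 7290) and 2280 times (779 to 11000) the Farage level. With inhibitor FBXO11 went the other way from MSH6, to 118.2 ± 11.7 CPM in SUDHL6 (log2 fold change 1.19, adjusted p = 1.12e-08) and 132.7 ± 2.8 CPM in SUDHL4 (0.75, adjusted p = 1.11e-06). FOXN2, the gene after FBXO11, averaged 80.62 ± 4.19 CPM in Farage with DMSO, above the means of 31.63 ± 1.08 in SUDHL6 and 46.83 ± 5.3 CPM in SUDHL4. The low level in Farage thus covered MSH6 and FBXO11, and not CALM2 and KCNK12 before them nor FOXN2 after them. FBXO11 and these neighbours were chosen after the value of MSH6 in Farage was seen.

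**Figure D2:**
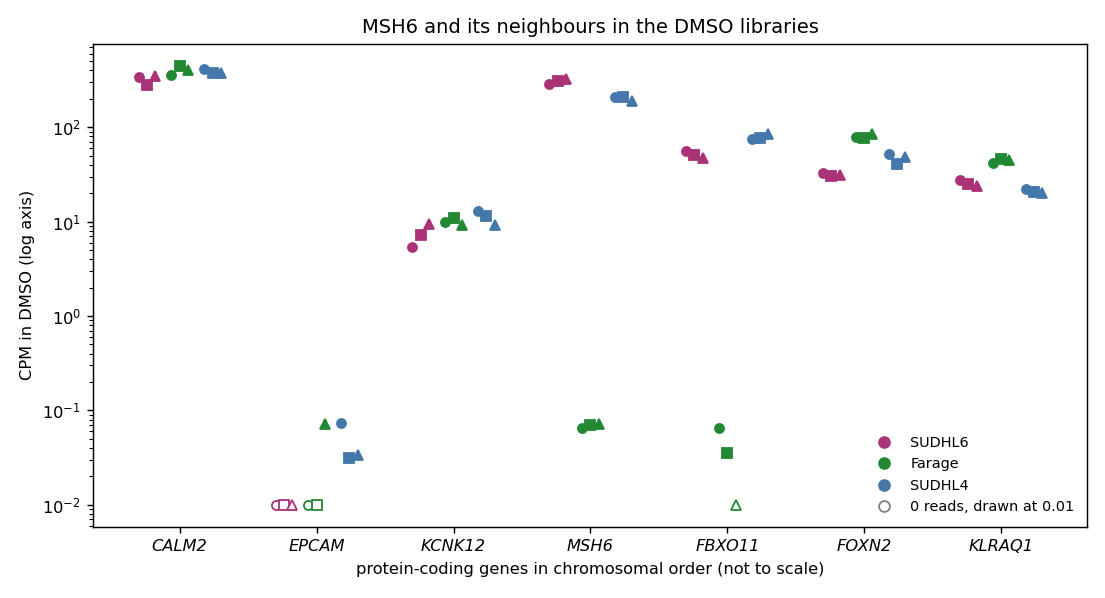
CPM (log axis) with DMSO of MSH6 and protein-coding genes around it in chromosomal order, not to scale, for the 3 libraries of each line, with 0 reads drawn as an open marker at 0.01. In Farage MSH6 and FBXO11 stood below 0.2 CPM while CALM2, KCNK12, FOXN2 and KLRAQ1 (now PPP1R21) lay at levels near or above those of the other lines, and EPCAM was near 0 in all 3 lines.

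Such a gap was rare in these data. Of 3262 genes with at least 50 CPM in the DMSO libraries of both other lines, on average, 4 lay below 0.2 CPM in both Farage groups: MSH6, FBXO11, BMP7 and OSBPL10. The same thresholds, chosen after the values were seen, gave 1 of 3270 genes for SUDHL6 and 3 of 3237 for SUDHL4. BMP7 and OSBPL10 were the genes whose pattern over the 6 groups was most like that of MSH6 among 10659 genes. Their root mean square differences were 0.282 and 0.489 on the log2 scale. The same gap in Farage dominates this measure, so the ranking is not a separate observation.

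EXO1, the exonuclease that resects the mismatched strand, had the widest spread of the 7 genes, relative to its mean, among the treated SUDHL6 libraries. SUDHL6 gave 40.29, 50.37 and 72.61 CPM with DMSO and 13.38, 29.04 and 53.99 CPM with inhibitor. Farage gave 38.63, 43.09 and 42.57 CPM with DMSO and 34.08, 35.14 and 37.58 CPM with inhibitor. SUDHL4 gave 17.37, 15.93 and 15.07 CPM with DMSO and 3.8, 3.666 and 4.999 CPM with inhibitor. The arms overlapped in SUDHL6, lay close together without overlap in Farage, and stood well apart in SUDHL4.

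EXO1 had a log2 fold change of -1.74 (SE 0.319, adjusted p = 0.000123) in SUDHL4, where the treated mean was 25.8% of the DMSO mean. It was -0.91 (SE 0.319, adjusted p = 0.0189) in SUDHL6, a call that ended with edgeR (-0.62, adjusted p = 0.0753), with DESeq2 (-0.61, adjusted p = 0.0726), in a limma fit of that line alone (adjusted p = 0.196), without replicate 3 of DMSO (-0.68, adjusted p = 0.0917) and without replicate 1 of the inhibitor (-0.41, adjusted p = 0.123). In Farage it was -0.21 (95% interval -0.89 to 0.46, adjusted p = 0.571). In a fit of Farage alone this value was called (adjusted p = 0.00982), while with median-of-ratios scaling it was 0.03.

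The fall of EXO1 was larger in SUDHL4 than in Farage by -1.53 (SE 0.451, adjusted p = 0.0139). SUDHL6 minus Farage was -0.69 (adjusted p = 0.249), and this difference was called with the replicate block (adjusted p = 0.0376), without both shallow SUDHL6 libraries (-0.94, adjusted p = 0.0215) and without replicate 3 of the treated SUDHL6 libraries (-1.16, adjusted p = 0.0106). SUDHL6 minus SUDHL4 was 0.83 (adjusted p = 0.166), called with the replicate block (adjusted p = 0.0172) and without replicate 1 of the treated SUDHL6 libraries (1.33, adjusted p = 0.00235). The block also pairs Farage and SUDHL4 libraries by number, although these did not deviate together. With DMSO the EXO1 level of SUDHL4 was lower than that of Farage by -1.31 (adjusted p = 0.00171), and SUDHL6 was higher than SUDHL4 by 1.66 (adjusted p = 0.000222). SUDHL6 and Farage overlapped with DMSO (0.35, adjusted p = 0.345).

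The SUDHL6 libraries varied together by replicate number. The treated library held 33.2%, 57.7% and 74.4% of the EXO1 level of the DMSO library of the same number, for replicates 1, 2 and 3. For MSH6 these shares were 24%, 39.8% and 45.5%, and for UNG 12.8%, 17.4% and 18.9%. All 3 genes were thus lowest in the treated replicate 1 of SUDHL6 relative to the DMSO library of the same number. POLH followed the same order (53.1%, 58% and 70.9%). APEX1 (37%, 51.1% and 42.6%) and APEX2 (49.7%, 83.8% and 58.7%) were lowest in replicate 1 but highest in replicate 2. REV1 (104%, 114% and 93.2%) was lowest in replicate 3. The summed CPM of 15 proliferation markers rose from replicate 1 to 3 in both arms. It was 3842, 4620 and 5269 with DMSO and 1008, 1917 and 2851 with inhibitor.

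POLH, the translesion polymerase tied to mutation at A and T bases of antibody genes, changed differently in each line. SUDHL6 gave 182.9, 183.1 and 184.5 CPM with DMSO and 97.15, 106.2 and 130.8 CPM with inhibitor. Farage gave 52.97, 50.65 and 51.57 CPM with DMSO and 44.5, 44.07 and 43.28 CPM with inhibitor. SUDHL4 gave 58.96, 64.82 and 63.95 CPM with DMSO and 67.7, 64.43 and 73.82 CPM with inhibitor. The SUDHL6 libraries with DMSO were the highest, all treated SUDHL6 libraries stayed above every library of the other lines, and only in SUDHL4 did the arms overlap.

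POLH had a log2 fold change of -0.73 (SE 0.0874, adjusted p = 1.79e-06) in SUDHL6. In Farage it was -0.23 (SE 0.0874, adjusted p = 0.0264), close to the median of all tested genes there, and it was 0.01 with median-of-ratios scaling, 0.01 with edgeR and 0.02 with DESeq2. The Farage call also ended without Farage DMSO replicate 1 (adjusted p = 0.0734) or 3 (0.0548) or inhibitor replicate 2 (0.0551) or 3 (0.065), all by limma. In SUDHL4 it was 0.13 (95% interval -0.05 to 0.32, adjusted p = 0.195), and 0.43 with median-of-ratios scaling (adjusted p = 0.000254), 0.45 with edgeR (adjusted p = 8.5e-05) and 0.44 with DESeq2 (adjusted p = 2.69e-06).

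The POLH response of SUDHL6 was lower than that of SUDHL4 by -0.86 (SE 0.124, adjusted p = 7.24e-05) and than that of Farage by -0.5 (SE 0.124, adjusted p = 0.00496). SUDHL4 minus Farage was 0.36 (SE 0.124, adjusted p = 0.0304), a call that ended in 7 of the fits that left out a Farage or SUDHL4 library, with values of 0.31 to 0.37 and adjusted p of 0.0506 to 0.0798: without Farage DMSO replicate 1 or 3, Farage inhibitor replicate 2 or 3, SUDHL4 DMSO replicate 1, or SUDHL4 inhibitor replicate 1 or 3. With DMSO, POLH was higher in SUDHL6 than in Farage by 1.81 (adjusted p = 8.6e-12) and than in SUDHL4 by 1.54 (adjusted p = 1.42e-10), and SUDHL4 was higher than Farage by 0.27 (adjusted p = 0.0124). XPO5, the nuclear export gene beside POLH, had its highest DMSO mean in SUDHL6 too, at 326.1 ± 14.5 CPM, beside 106.2 ± 1.45 in Farage and 88.84 ± 5.51 CPM in SUDHL4. XPO5 was lower with inhibitor in SUDHL6, Farage and SUDHL4 (-1.08, -0.7 and -1.77, adjusted p = 4.53e-08, 4.1e-06 and 1.52e-10). GTPBP2, a GTP-binding protein gene that overlaps POLH in the annotation, averaged 188.1 ± 17.7 in SUDHL6, 61.36 ± 1.31 in Farage and 54.73 ± 1.79 CPM in SUDHL4 with DMSO, and rose with inhibitor by 0.44, 0.27 and 0.31 (adjusted p = 0.000169, 0.00804 and 0.00274).

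REV1, the scaffold of translesion synthesis, was called lower in no line. SUDHL6 gave 71.88, 67.36 and 61.58 CPM with DMSO and 74.73, 76.7 and 57.38 CPM with inhibitor. Farage gave 51.51, 50.22 and 54.03 CPM with DMSO and 56.62, 58.68 and 57 CPM with inhibitor. SUDHL4 gave 45.54, 41.54 and 48.03 CPM with DMSO and 57.37, 51.33 and 60.08 CPM with inhibitor. The arms overlapped in SUDHL6, while every treated library of Farage and SUDHL4 lay above the DMSO libraries of its line.

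REV1 had a log2 fold change of 0.31 in SUDHL4 (SE 0.101, adjusted p = 0.0105), a call that ended without DMSO replicate 2 (0.26, adjusted p = 0.0538). It was 0.05 in SUDHL6 (95% interval -0.17 to 0.26, adjusted p = 0.709) and 0.14 in Farage (adjusted p = 0.213). The Farage value was called in a limma fit of that line alone (0.14, adjusted p = 0.0123) and, when libraries were scaled by the median of ratios, with limma (0.38, adjusted p = 0.00288). With edgeR and DESeq2 it was 0.39 and 0.4 (adjusted p = 0.00377 and 0.000364). The SUDHL6 value was called with edgeR (0.26, adjusted p = 0.0392) and DESeq2 (0.25, adjusted p = 0.0347). The lines were not called different in this response (adjusted p of 0.159 to 0.634). With median-of-ratios scaling and with DESeq2, SUDHL6 minus SUDHL4 was -0.39 and -0.38 (adjusted p = 0.0464 and 0.0432). With DMSO the REV1 level of SUDHL6 was above that of SUDHL4 by 0.56 (adjusted p = 0.000111) and that of Farage by 0.36 (adjusted p = 0.00448).

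**Figure D3:**
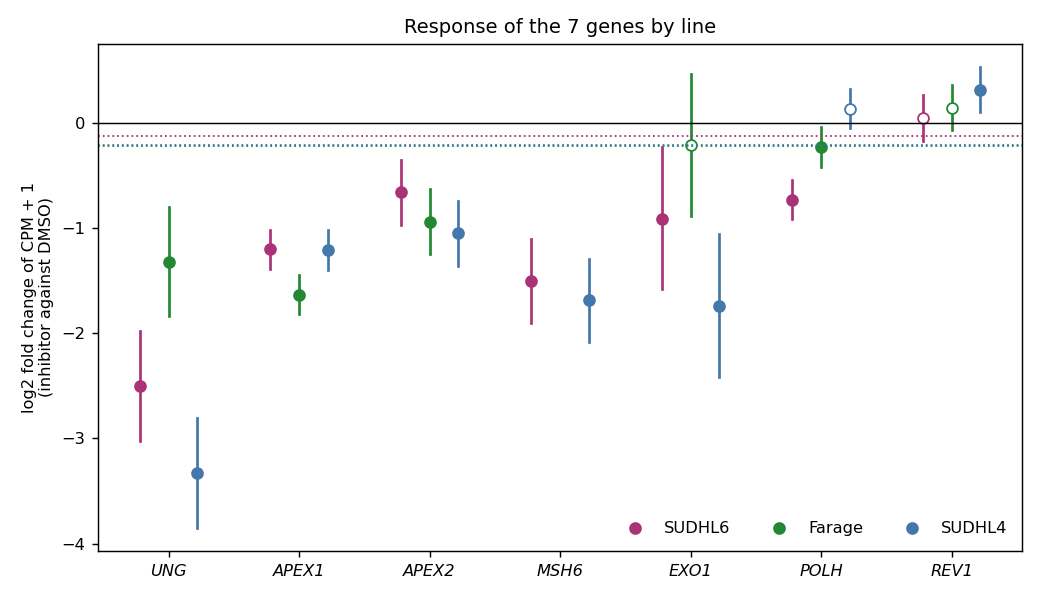
Log2 fold change of CPM + 1 with inhibitor against DMSO for the 7 genes in each line, with 95% intervals of the limma fit, filled points for genes called at an adjusted p under 0.05, and dotted lines at the median of all tested genes of each line. UNG reached -3.33 in SUDHL4 and -2.5 in SUDHL6, the response of APEX1 and APEX2 lay between -0.66 and -1.64, and REV1 lay at or above 0.05. MSH6 in Farage is left out because its level was near 0.

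Across lines, 3 of the 6 genes other than MSH6 (UNG, POLH and APEX1) were called different in their response between SUDHL6 and Farage, where 36.8% of all tested genes were (21.7% higher in SUDHL6 and 15.1% lower), and 4 (UNG, EXO1, POLH and APEX1) between SUDHL4 and Farage, where 37.4% were (17.7% higher in SUDHL4 and 19.7% lower). Between SUDHL6 and SUDHL4 POLH alone of the 7 was called, against 35% of all tested genes (22.5% higher in SUDHL6 and 12.5% lower). In the DMSO libraries, 4 of the 7 genes were called different between SUDHL6 and Farage, all higher in SUDHL6, where 71.3% of all tested genes were (37.5% higher and 33.8% lower). Between SUDHL4 and Farage 3 were called, 2 higher in SUDHL4 and 1 lower, against 67.1% (31.1% higher and 36% lower), and between SUDHL6 and SUDHL4 5, all higher in SUDHL6, against 68.6% (38.5% higher and 30.1% lower). MSH6 was among them in each case. In CPM without further scaling, SUDHL6 had the highest DMSO mean of all 7 genes. Its lead was not called against Farage for UNG, EXO1 and APEX1, nor against SUDHL4 for UNG and APEX1. For APEX1 the means of SUDHL6 and Farage were 196.7 and 194.8 CPM. Their difference changed sign with median-of-ratios scaling (-0.09) and edgeR (-0.07).

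The genes with the most similar pattern over the 6 groups, by the root mean square difference of centred log2 values, differed from gene to gene. For UNG they were SPIB (0.2), a B cell transcription factor, and DCTPP1 (0.223), a nucleotide pyrophosphatase that clears modified deoxycytidine triphosphates. For APEX1 they were MMS19 (0.082) and HMMR (0.0968), for APEX2 IRF3 (0.0576) and NCLN (0.0729), and for EXO1 ZNF286A (0.211) and POP1 (0.236). For POLH they were APOM (0.159) and ZNF93 (0.173), and for REV1 ZNF182 (0.0574) and TRIM56 (0.061). UNG was not among the nearest to any of the other 6, and the distance of UNG to APEX1 was 0.826.

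The neighbours of UNG fell as well. ALKBH2, a DNA dealkylation repair enzyme whose gene lies beside UNG, had log2 fold changes of -2.44 (adjusted p = 3.38e-09) in SUDHL6, -1.62 (1.56e-07) in Farage and -2.92 (2.72e-10) in SUDHL4. ACACB, an acetyl-CoA carboxylase gene on the other side, had -2.14 (1.23e-08), -2.09 (9.22e-09) and -1.51 (3.23e-07). The neighbours of APEX1 went both ways. PIP4P1, which overlaps APEX1 in the annotation, was higher with inhibitor in SUDHL6 (0.7, adjusted p = 1.27e-05) and SUDHL4 (0.58, adjusted p = 8.07e-05). In Farage PIP4P1 was not called (0.19, adjusted p = 0.0994). OSGEP, the gene on the other side of APEX1, was lower in SUDHL6, Farage and SUDHL4 (-0.4, -1.34 and -1.5, adjusted p = 0.00172, 5.53e-09 and 1.52e-09). EIF5B, which overlaps REV1, was lower in all 3 lines (-0.29, -0.29 and -0.76, adjusted p = 0.00241, 0.00239 and 1.22e-07). The strand setting of the counting is not given in the sources used here, so reads where genes overlap cannot be told apart.

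Around UNG, APEX1 and APEX2, the other genes of uracil removal and base excision repair were mostly lower. Of 11 other DNA glycosylases and genes of uracil control, 8 were lower and 3 higher in the mean of the 3 lines, where 53.8% of all tested genes were lower, 30.1% higher and 83.9% called. Their median log2 fold change was -1.17, beside -0.24 over all tested genes. With median-of-ratios scaling, edgeR and DESeq2, 7 of them were lower and 3 higher. SAMHD1, a deoxynucleotide triphosphatase, had -2.43 (adjusted p = 2.07e-11), with 82.21 ± 8.55 CPM falling to 8.045 ± 1.51 CPM in SUDHL4. NTHL1, a glycosylase for oxidised pyrimidines, had -2.41 (adjusted p = 4.61e-12), and OGG1, the glycosylase for 8-oxoguanine, had -2.15 (adjusted p = 7.83e-13). The 3 that were higher were TDG, NEIL1 and NEIL2, named after their values were seen, with 0.42, 0.26 and 0.24. None of them was called higher in all 3 lines. TDG had 0.69, 0.5 and 0.07 in SUDHL6, Farage and SUDHL4 (adjusted p = 0.000225, 0.00326 and 0.67). NEIL1 was higher in SUDHL6 and SUDHL4 (0.59 and 0.68, adjusted p = 0.00805 and 0.00274) and lower in Farage (-0.5, adjusted p = 0.0196). NEIL2 was higher in Farage (1.04, adjusted p = 3.64e-07), lower in SUDHL4 (-0.39, adjusted p = 0.00451) and not called in SUDHL6 (0.07, adjusted p = 0.581). Of 9 genes that fill and seal the gap, 7 were lower and 1 higher, with a median of -1.32. In the same 3 alternative fits 6 of the 9 were lower and 2 higher. LIG1, the replicative DNA ligase, had -1.94 (adjusted p = 1.38e-11), LIG3, the ligase of the XRCC1 complex, -1.79 (adjusted p = 9.37e-13), and PARP1, the strand break sensor, -1.61 (adjusted p = 5.21e-12).

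Around MSH6 and EXO1, 14 of 15 other mismatch repair genes were lower in the mean of the lines and none was higher, with a median of -1.28. Of all tested genes 53.8% were lower, 30.1% higher and 83.9% called, with a median of -0.24. Under median-of-ratios scaling 13 of the 15 were lower and none was higher, while edgeR and DESeq2 each gave 13 lower and 1 higher. The median was -1.05 in each of these fits. The list was lower in 14 of 15 genes in SUDHL6, 12 in Farage and all 15 in SUDHL4. The shares of all tested genes called lower were 41.3%, 46.5% and 46.2% in these lines. PCNA, the sliding clamp, had a mean log2 fold change of -1.63 (adjusted p = 7.37e-09), and RFC5, a subunit of the clamp loader, -1.62 (adjusted p = 6.52e-10).

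Around POLH and REV1, 13 of the 14 listed genes of translesion synthesis were found. In the mean of the lines they were split, with 6 lower and 5 higher and a median of -0.21. That is near the median of all tested genes (-0.24), of which 53.8% were lower and 30.1% higher. With median-of-ratios scaling the split was 5 lower and 6 higher, with a median of 0.02. HLTF, a ubiquitin ligase of damage tolerance, had -2.06 (adjusted p = 7.62e-12). UBE2B, the ubiquitin-conjugating partner of RAD18, had 1.43 (adjusted p = 5.21e-12) and rose from 32.51 ± 2.85 to 88.83 ± 12.8 CPM in SUDHL6. MAD2L2, a subunit of polymerase zeta, had -0.98 (adjusted p = 7.8e-10).

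Of 13 genes of end joining and its signalling, which serve class switch recombination, 9 were lower and 3 higher, with a median of -0.31. Under median-of-ratios scaling 6 were lower and 4 higher, with a median of -0.08. For these and the deaminases below, the background in the mean of the lines was 53.8% of all tested genes lower and 30.1% higher, with a median of -0.24. PRKDC, the catalytic subunit of the DNA-dependent protein kinase, had -1.53 (adjusted p = 9.48e-12), DCLRE1C, the Artemis nuclease, -0.9 (adjusted p = 8.5e-07), and LIG4, the ligase of end joining, 0.66 (adjusted p = 2.09e-07). Of 16 deaminases and deaminase cofactors 15 were tested, 12 were lower and 2 higher, with a median of -0.41. With that scaling 11 were lower and 3 higher, and with edgeR and with DESeq2 9 were lower and 3 higher. APOBEC3G and APOBEC3C, cytidine deaminases that restrict viruses and retroelements, had -2.34 (adjusted p = 6.01e-11) and -2.03 (adjusted p = 3.4e-10). The members of these lists were chosen with earlier results of these data known, so their counts are a description.

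**Figure D4:**
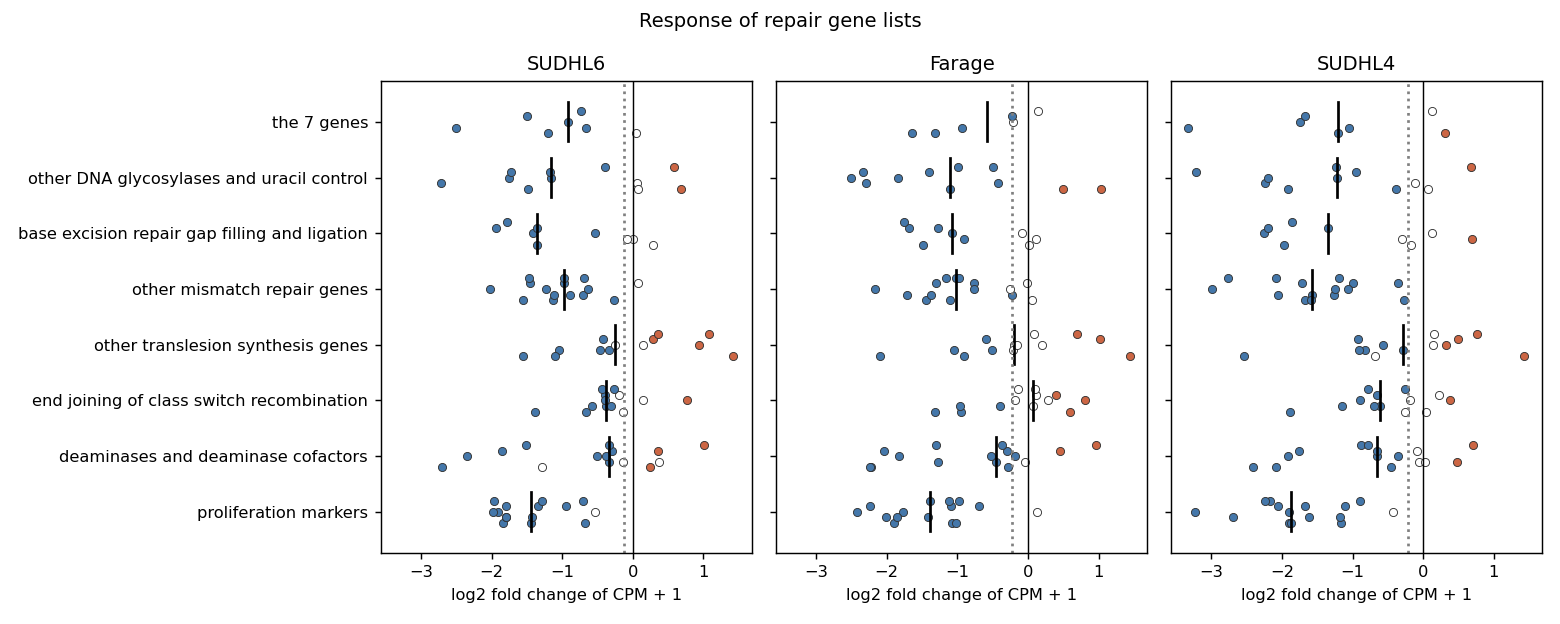
Log2 fold change of CPM + 1 with inhibitor against DMSO in each line, with 1 point per gene for the 7 genes and for 7 related lists (blue called lower, orange called higher, open not called), a bar at each list's median and a dotted line at the median of all tested genes. The mismatch repair list lies left of 0 in SUDHL4 throughout, the translesion list lies on both sides in each line, and MSH6 is left out of the Farage panel.

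Markers of dividing cells and of B cells were mostly lower with inhibitor, whereas the 7 genes did not all fall and REV1 was called lower in no line. Of 15 proliferation markers 14 were lower and none was higher in the mean of the lines, with a median of -1.61. Among all tested genes 53.8% were lower and 30.1% higher there, with a median of -0.24. RRM2, a ribonucleotide reductase subunit, had -2.54 (adjusted p = 9.4e-09), TOP2A, a DNA topoisomerase, -1.91 (adjusted p = 6.44e-07), and CCNA2, cyclin A2, -1.88 (adjusted p = 9.37e-08). Their summed level ran from 3071 to 3148 CPM with DMSO and from 1078 to 1138 CPM with inhibitor in Farage, and from 2387 to 2729 CPM and 808.5 to 819.8 CPM in SUDHL4. All 8 B cell markers were lower in the mean of the lines, with a median of -1.11, among them PAX5, the B cell identity factor (-2.24, adjusted p = 3.71e-11), CD72 (-2.14, adjusted p = 8.98e-09) and CD79B (-1.69, adjusted p = 3.64e-11). With median-of-ratios scaling, edgeR and DESeq2, 6 of the 8 were lower and none higher. CD37, chosen after its values were seen, was lower in SUDHL6 (-1.19, adjusted p = 1.62e-07), not called in Farage (-0.2, adjusted p = 0.12) and higher in SUDHL4 (0.41, adjusted p = 0.00386). The summed B cell markers ran from 5606 to 6066 CPM with DMSO and from 2248 to 3346 CPM with inhibitor in SUDHL6, from 3701 to 3860 and 2159 to 2280 CPM in Farage, and from 6568 to 7031 and 4617 to 4779 CPM in SUDHL4. Of the 12 markers of other cell types 4 were expressed enough to be tested, 2 of them lower and 1 higher in the mean of the lines, with a median of -0.02. The median was 0.06 with median-of-ratios scaling, where 2 were lower and 2 higher. Both lower calls ended with edgeR and with DESeq2, where 1 was higher and the median was 0.19 and 0.36. The part of these shifts in the changes of the 7 genes was not tested.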

How the data were processed

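The authors deposited 1 table of CPM per library (reads of a gene scaled to the library's size), for 18 libraries of 3 lines with 3 libraries per group. Per the labels' protocols a TruSeq RNA kit was used, per the submitters' processing notes STAR and hg19, and the description of 1 sample adds Rsubread. Not given in the sources used here were tool versions, annotation and strand setting. The deposited CPM values were whole multiples of 1 read for 100% of values within 0.01 reads, so whole reads were recovered. The listed genes held 74.63% to 80.72% of each divisor.

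The main test was limma 3.58.1 (R 4.3.3) with an intensity trend on log2(CPM + 1), with no further scaling and a mean for each of the 6 groups (12 residual degrees of freedom). Genes at 1 CPM or more in at least 3 libraries were tested. Two-sided p-values were adjusted by Benjamini-Hochberg over all 12769 genes, and a gene was called at an adjusted p under 0.05. This fit shares 1 spread per gene across the lines. edgeR 4.0.16 and DESeq2 1.42.0 on recovered reads, a pseudocount of 0.25, other filters, median-of-ratios scaling, a replicate block and leaving out libraries were alternatives. The fits were tested on simulated data.

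Same-numbered SUDHL6 libraries deviated together (correlation across genes 0.425, 0.488 and 0.632). This was taken as pairing for the replicate block, although the titles give replicate numbers only, and the main test used no pairing. Those of Farage (0.168, -0.128 and -0.189) and SUDHL4 (-0.054, 0.034 and -0.073) did not. The replicate block was nevertheless fitted in all 3 lines. No replicate pair agreed within sampling noise. Groups came from the labels. The 7 genes and all lists were chosen with earlier results of these data known. From each list up to 3 genes were named, called in the average over lines, of 1 sign in all 3 lines, and at least 2 CPM, largest change first (some of these are not reported here), and the 2 most similar genes per member. Depth limits single values to the worth of 3 reads, 0.095 to 0.362 CPM. The tables hold symbols without coordinates, and RefSeq (GRCh38.p14) supplied gene order and promoter sequence only.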

Additional observations from a re-analysis of the deposited data

Results flagged for a closer look

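The response to the inhibitor was called different between lines in 10 of 21 tests of the difference itself over the 7 genes. Of these 10, 8 were for genes other than MSH6 (limma on log2(CPM + 1), adjusted over all genes tested). Comparisons against Farage share the Farage libraries. For UNG the response of SUDHL6 minus Farage was -1.18 (SE 0.347, adjusted p = 0.0139) and that of SUDHL4 minus Farage -2 (SE 0.347, adjusted p = 0.00027), while its DMSO levels were not called different. For EXO1, SUDHL4 minus Farage was -1.53 (SE 0.451, adjusted p = 0.0139). For POLH, SUDHL6 minus Farage was -0.5 (adjusted p = 0.00496), SUDHL4 minus Farage 0.36 (adjusted p = 0.0304) and SUDHL6 minus SUDHL4 -0.86 (adjusted p = 7.24e-05). For APEX1, SUDHL6 minus Farage was 0.43 (adjusted p = 0.0122) and SUDHL4 minus Farage 0.43 (adjusted p = 0.0129), so that UNG and APEX1 ranked the lines differently. The other 2 were those of MSH6 against Farage, where MSH6 was near 0 in both arms and had no room to fall. These 2 calls only restate the falls of MSH6 in SUDHL6 and SUDHL4, so their values are not given. Between lines, 35% to 37.4% of all tested genes passed the same test.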

How the results depend on the processing

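Of the 7 genes' values under the alternatives, 1520 kept their direction and side of the threshold, 28 passed it newly, 24 no longer passed it and 24 changed sign. Many of the 1520 come from fits that left out a library the comparison does not use, where the fold change cannot move. The count is therefore no measure of stability. MSH6 in Farage, and in comparisons of another line with Farage, was not counted. Between SUDHL6 and SUDHL4 the number of the 7 genes called different in response, 1 as reported, was 2 with median-of-ratios scaling (2 lower), 3 with the replicate block, 2 with DESeq2 (2 lower) and 1 to 5 with 1 library left out, the 5 without replicate 1 of the treated SUDHL6 libraries. In DMSO, the genes lower in SUDHL4 than in Farage were 1 to 2 when 1 library was left out. With 1 library left out, REV1 in SUDHL6 ran from -0.03 to 0.18 and in SUDHL6 minus Farage from -0.17 to 0.03; SUDHL6 minus SUDHL4 ran from -0.05 to 0.51 for MSH6 and from -0.1 to 0.1 for APEX1; with DMSO, APEX1 in SUDHL6 minus Farage ran from 0 to 0.05 and UNG in SUDHL6 minus SUDHL4 from -0.06 to 0.34. In Farage, EXO1 was 0.03 with median-of-ratios scaling, 0.02 with edgeR and 0.04 with DESeq2, and POLH 0.01, 0.01 and 0.02. APEX1 in SUDHL6 minus SUDHL4 was -0.12 in each of these 3 and APEX1 with DMSO in SUDHL6 minus Farage -0.09 with scaling and -0.07 with edgeR. The cause was not tested. The block changed no call within a line. Depth limits MSH6 in Farage. All alternatives for the differences of response were chosen after seeing the data.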
